A study of Mus musculus with 12 samples.

Results

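The collagen gene family was taken as every gene whose symbol is Col, a number, the letter a and a number, which found 44 genes of the 78317 gene IDs counted. All 44 are described here from bulk RNA-seq of snap-frozen heart ventricle. The hearts came from 12 C57BL/6J offspring, 6 with a sire whose heart had been cryoinjured on postnatal day 1 (injured-sire hearts, labelled paternal Injured P0) and 6 with an uninjured sire (uninjured-sire hearts). The offspring themselves carried no injury, allele or agent that the labels name, so the comparison asks whether the heart's collagen messages differed with what had been done to the father. The labels give the collection time as 3 wpp and also call the offspring adult. They count 3 males and 3 females with injured sires and 4 males and 2 females with uninjured sires, without tying a sex, a sire or a litter to an animal. How far the hearts in a group were siblings is therefore not known, and p-values here cover no more than the spread among these animals.

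Collagens are secreted or membrane proteins whose chains wind together in a triple helix. In the heart, fibrillar collagens made by fibroblasts form the load-bearing network between muscle cells, basement membrane collagens form sheets around muscle cells and capillaries, and beaded collagen VI links the sheets to the fibrils. Smaller collagens sit on fibril surfaces, in vessel walls or in cell membranes. Newly made chains are hydroxylated and folded in the endoplasmic reticulum, exported, trimmed and cross-linked outside the cell, and later cut by proteases. A larger network of collagens I and III is the hallmark of scarring after heart injury. RNA-seq reads the messages, not the deposited protein, and in bulk tissue fewer cells of a type and less RNA per cell cannot be told apart.

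Library totals ran from 30537315 to 42090257 counts, and collagens took 0.507% to 0.663% of them. Markers of cardiomyocytes, 10 genes, summed to 78148 to 91038 CPM (counts per 1e6 counts after scaling) in 5 injured-sire hearts, against 75758 to 85460 CPM in 6 uninjured-sire hearts, the high level of heart muscle. The labels call injured-sire replicate 16 an outlier, so it was left out of the test and is given beside it. Airway and lung markers, foreign to ventricle, summed to 1.24 CPM in injured-sire replicate 16 and to 43.8, 149.9, 276, 477 and 709.9 CPM in the other 5 injured-sire hearts. In uninjured-sire hearts the sum lay at 0.980 to 6.09 CPM in 4 hearts and at 324 and 439 CPM in the other two. These markers are returned to beside the cartilage collagens.

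Pairs of collagen genes share their start regions or stand side by side on the mouse genome, which frames the comparisons below. On GRCm39, the build of the counted annotation, Col4a1 (chromosome 8, 11248423 to 11362826, minus strand) and Col4a2 (chromosome 8, 11362805 to 11499287, plus strand) point away from each other and overlap by 22 bases at their starts. Col4a4 and Col4a3 on chromosome 1 likewise stand head to head 71 bases apart, and Col4a6 and Col4a5 on the X chromosome 1308 bases apart. Col3a1 and Col5a2 lie tail to tail on chromosome 1, separated by 24614 bases. Since reads were counted by strand, the overlap does not mix the counts of Col4a1 and Col4a2.

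The stretch transcribed on both strands is shown because these genes are read as a pair later. It is the overlap of their RefSeq start positions on GRCm38.p6, at chr8:11312805-11312826, first as Col4a2 reads it and then as Col4a1 reads it, 5′ to 3′.
Col4a2: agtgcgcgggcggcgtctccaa
Col4a1: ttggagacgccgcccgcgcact
The other sequences are the 250 bases before the RefSeq start of Col3a1, the fibrillar gene with most counts, and of Col5a3, the collagen with the smallest p, at chr1:45311288-45311537 on the plus strand and chr9:20815068-20815317 on the minus strand of GRCm38.p6. In these 250-base stretches, capitals mark 3 short motifs searched on both strands, namely TATAAA of TATA boxes, then CCAAT of CCAAT boxes, and GGGCGG of GC boxes. The overlap printed first was left unmarked, though it holds GGGCGG as Col4a2 reads it. No marked stretch overlaps another.
Col3a1: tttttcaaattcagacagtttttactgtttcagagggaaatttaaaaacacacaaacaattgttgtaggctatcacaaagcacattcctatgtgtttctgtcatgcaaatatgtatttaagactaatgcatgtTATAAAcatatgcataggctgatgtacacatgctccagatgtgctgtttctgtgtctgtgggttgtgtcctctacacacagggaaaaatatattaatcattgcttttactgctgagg
Col5a3: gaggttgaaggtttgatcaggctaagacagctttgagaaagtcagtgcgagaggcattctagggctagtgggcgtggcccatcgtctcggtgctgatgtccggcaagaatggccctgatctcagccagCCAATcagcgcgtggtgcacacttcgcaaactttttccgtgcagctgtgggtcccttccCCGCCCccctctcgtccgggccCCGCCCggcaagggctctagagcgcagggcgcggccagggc
The Col3a1 stretch has 1 TATAAA, no CCAAT and no GGGCGG, and 35.2% of its bases are G or C. The Col5a3 stretch has 1 CCAAT, 2 GGGCGG and no TATAAA, and 62.8% of its bases are G or C. Over 38 start windows of 35 collagen genes found in the RefSeq table, 13 held CCAAT (34.2%, against 33.8% of 32851 windows of all genes), 5 held TATAAA (13.2% against 12.4%) and 22 held GGGCGG (57.9% against 32.7%). These matches describe letters and say nothing about which factor binds.

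**Figure D1:**
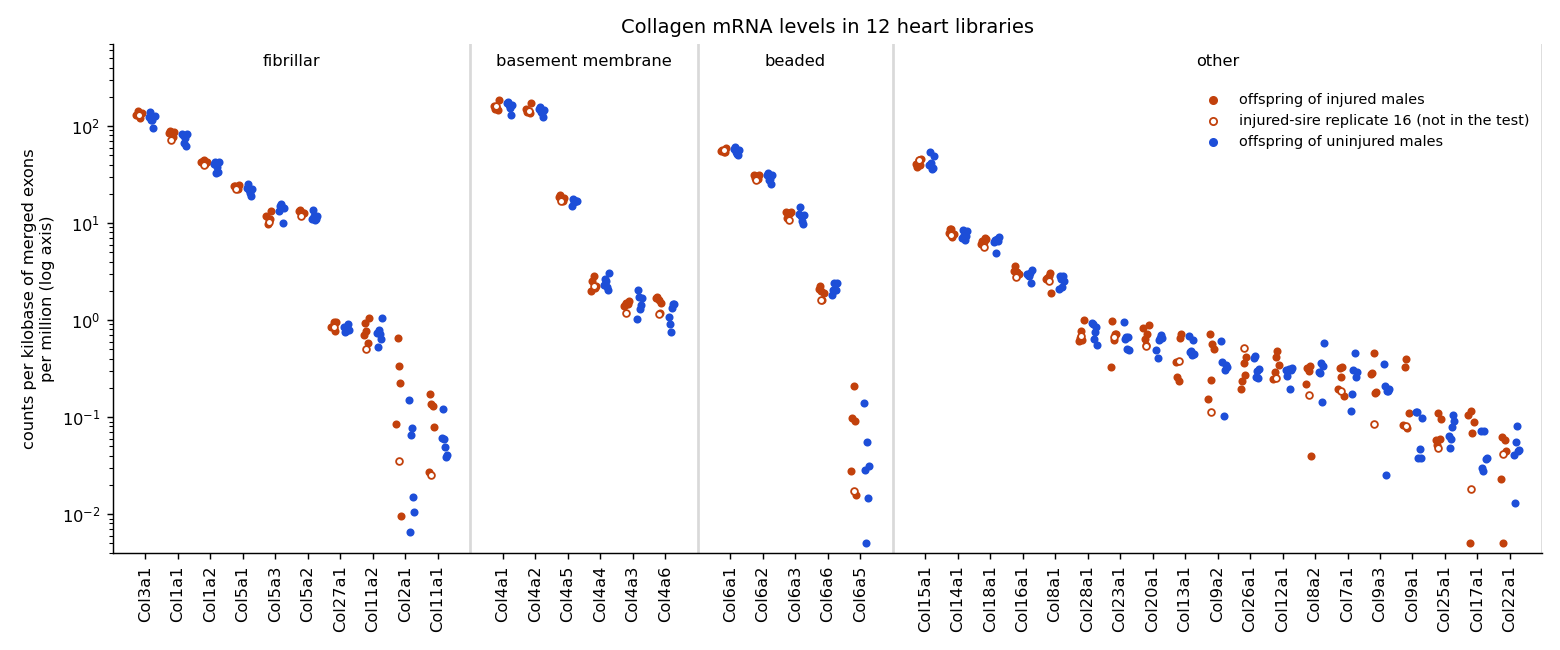
Level of the 40 tested collagen genes in each of 12 hearts, as CPM per kilobase of merged exon length on a log axis, ordered by mean and split by class; hearts with 0 counts are drawn near the bottom edge. Col4a1, Col4a2 and Col3a1 stood above 100 CPM per kilobase on average, and the scarcest genes spread over more than 10-fold between hearts.

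The message pool was dominated by few genes. On CPM per kilobase of merged exon length, which allows levels to be compared between genes, Col4a1 averaged 160.2 ± 14.8 (SD, n = 12), Col4a2 144 ± 12.0 and Col3a1 125 ± 12.6. Col4a1 stood above Col4a2 in 12 of 12 hearts, and Col4a2 above Col3a1 in 11. Next came Col1a1 at 78.6 ± 8.41 and Col6a1 at 55.3 ± 2.97 per kilobase, each above the next gene in 12 of 12 hearts. Col15a1 (42.5 ± 5.19) and Col1a2 (40.3 ± 3.70) were not separated, with Col15a1 above in 7 of 12 hearts, and Col5a3 (12.5 ± 2.12), Col5a2 (12.2 ± 1.01) and Col6a3 (12.0 ± 1.35) had overlapping levels too. The top 4 genes held 64.6% of the summed collagen level and the top 13 held 95.7%.

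The order depended on the length used. Merged exons include rarely used or extended exons: Col1a2 spans 12426 bases of them, against 5348 bases in its longest coding mRNA in GENCODE M21, and Col3a1 9816 against 5564. Per kilobase of that mRNA, an alternative chosen after seeing the data, Col3a1 came first at 221 ± 22.2 (SD, n = 12), then Col4a1 at 181 ± 16.7, Col4a2 at 148 ± 12.3, Col1a2 at 93.6 ± 8.59 and Col1a1 at 87.0 ± 9.31. Fibrillar genes held 37.3% of the collagen level on merged exons and 44.8% on mRNA length, and basement membrane genes 41.6% and 34.5%. Which of these classes led thus turned with the length, while beaded genes held 12.6% on both and the other collagens 8.52% and 8.08%. On merged exons the fibrillar share averaged 38.2% ± 1.46 in injured-sire hearts (SD, n = 5) and 36.5% ± 0.805 in uninjured-sire hearts (SD, n = 6), and the ranges overlapped at 36.3% to 40.4% and 35.5% to 37.2%.

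No collagen gene passed the test between the groups. Of 44 genes, 40 had enough counts to be tested by edgeR's quasi-likelihood test, with p-values adjusted by Benjamini-Hochberg over all 17130 genes tested, and 0 had an adjusted p under 0.05. The background was as sparse, with 18 genes called, 0.105% of those tested. These 18 split into 9 higher and 9 lower, against 17 higher and 8 lower without scaling factors and 7 higher and 12 lower with upper-quartile factors. By direction, 29 collagens had a higher estimate in injured-sire hearts and 11 a lower one, or 72.5% higher against 50.1% of all genes. The median log2 fold change (injured over uninjured sire) was 0.08 over the 40 collagens and under 0.01 over all genes. At an unadjusted p under 0.05 stood 7 collagens (17.5%), 6 higher and 1 lower, against a background of 8.96% of all genes (4.28% higher and 4.68% lower). Collagen levels move together from heart to heart, so these genes do not count as separate observations.

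That count of 7 moved with single hearts and with the scaling. It became 3 without injured-sire replicate 13 and 4 without injured-sire replicate 14, uninjured-sire replicate 20 or uninjured-sire replicate 22. It became 11 without uninjured-sire replicate 19, 5 with all 12 libraries and 10 without scaling factors. Over all genes the count moved from 1534 of 17130 to 1358 of 17489 without injured-sire replicate 13. It was 1270 of 16887 without uninjured-sire replicate 20 and 1539 of 16933 without uninjured-sire replicate 19. Col4a6, Col5a2 and Col5a3 stayed under 0.05 in all 23 settings. In no collagen did all 5 injured-sire hearts stand on 1 side of all 6 uninjured-sire hearts, a separation seen in 0.432% of all genes upward and 0.625% downward. By DESeq2's Wald test 0 collagens were called too, with 7 at an unadjusted p under 0.05. The 4 genes with too few counts for the test were Col24a1 (2 to 31 counts per heart), Col6a4 (0 to 34), Col10a1 (0 to 9) and Col19a1 (0 to 8).

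**Figure D2:**
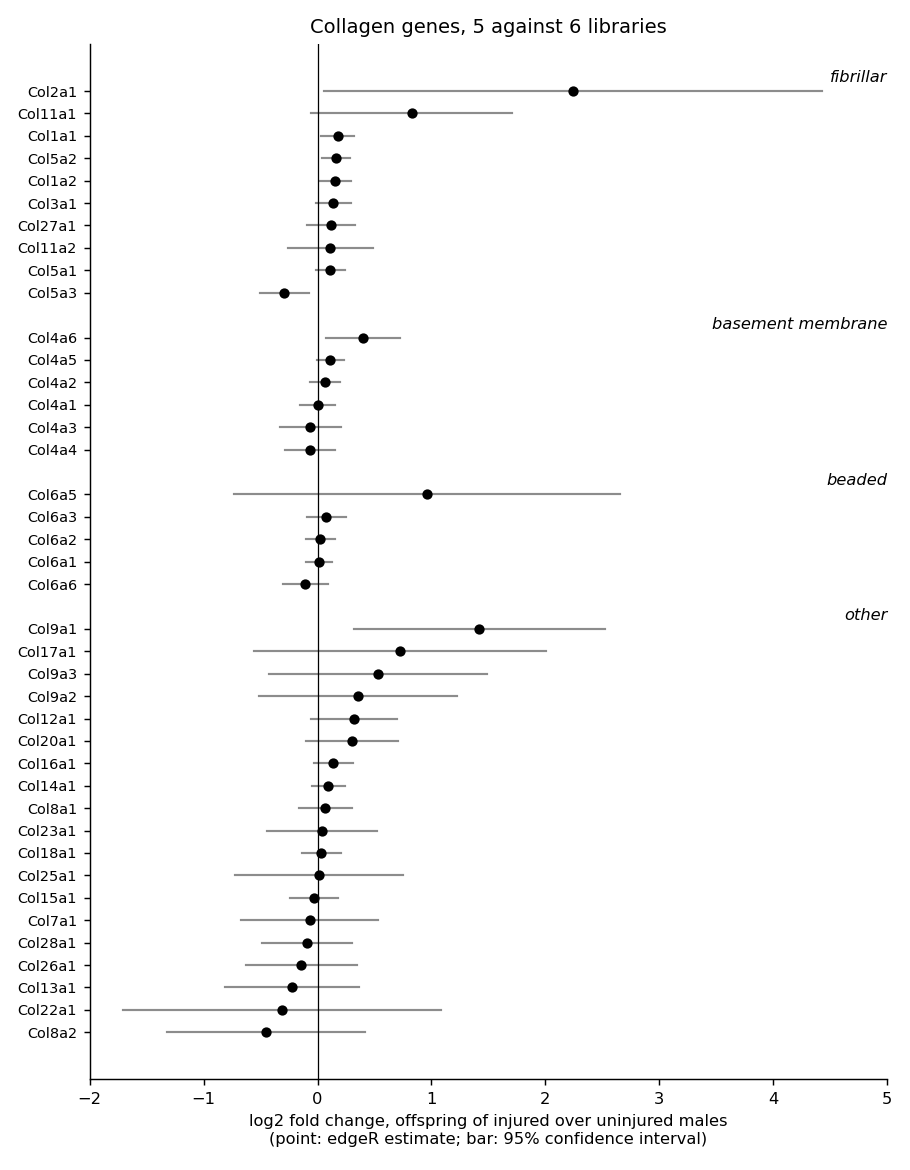
Log2 fold change (injured over uninjured sire) with its 95% confidence interval for the 40 collagen genes tested, grouped by class. Intervals of the abundant genes are narrow and lie near 0, and the intervals of Col2a1, Col9a1 and Col6a5 are wide.

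Fibrillar collagens, the rope-like load-bearing group, had the most uniform direction. Of 11 genes, 10 were tested and 9 of these had higher estimates in injured-sire hearts, with a median log2 fold change of 0.15. The estimates of the abundant ones were small, 0.11 to 0.18, which is 1.08 to 1.13-fold. The exception was Col5a3, whose estimate was lower at 0.816-fold. Of the 10, 4 reached an unadjusted p under 0.05 upward and 1 downward, and 0 were called.

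Col3a1 encodes the chain of collagen III, the thin compliant fibrils of heart and vessel wall. It had 1278, 1396, 1241, 1196 and 1329.7 CPM in injured-sire hearts, against a lowest, median and highest of 933, 1181 and 1363 CPM in uninjured-sire hearts. All 5 injured-sire hearts lay above the uninjured-sire median, and 4 of them below its highest heart. The log2 fold change was 0.14 ± 0.0733 (SE), with an adjusted p of 0.605 by edgeR. Replicate 16 had 1265 CPM.

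Col1a1 and Col1a2 encode the chains of collagen I, the stiff fibrils that bear most tension. Col1a1 had 551, 581, 567, 509 and 565 CPM in injured-sire hearts, against 406, 511 and 543 CPM as lowest, median and highest in uninjured-sire hearts. In it, 4 of the 5 injured-sire hearts stood above every uninjured-sire heart, and replicate 16, at 469.8 CPM, did not. The log2 fold change was 0.18 ± 0.0698 (SE; 95% interval 0.03 to 0.32), with an adjusted p of 0.429 by edgeR and an unadjusted p of 0.0205, which became 0.0720 with replicate 16 included. Col1a2 had 523, 546, 549.7, 505 and 527 CPM in injured-sire hearts, against 410.4, 486 and 533 CPM in uninjured-sire hearts. Its injured-sire values were all above the uninjured-sire median, and its log2 fold change was 0.16 ± 0.0646 (SE; adjusted p 0.458 by edgeR). Uninjured-sire replicates 20 and 22 were the lowest for both genes, and without either one the unadjusted p was 0.0547 and 0.0535 for Col1a1 and 0.0764 and 0.0686 for Col1a2. Without injured-sire replicate 13 it was 0.0548 for Col1a1 and 0.0578 for Col1a2, and without injured-sire replicate 14 it was 0.0588 for Col1a2.

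Collagen V chains start and size collagen I fibrils. The usual trimer is built from the Col5a1 and Col5a2 chains, and Col5a3 supplies the chain of a rarer trimer. Col5a1 had 207, 205, 199, 191 and 212 CPM in injured-sire hearts, against 163, 189.8 and 214 CPM in uninjured-sire hearts, a log2 fold change of 0.11 ± 0.0614 (SE; adjusted p 0.633 by edgeR). Col5a2 had 128, 130.3, 121, 121 and 123 CPM in injured-sire hearts, against 104, 109 and 129 CPM in uninjured-sire hearts. Every injured-sire heart stood above 5 of the 6 uninjured-sire hearts, and the remaining one, replicate 19, was above 4 of the injured-sire hearts. The log2 fold change of Col5a2 was 0.16 ± 0.0597 (SE), with an unadjusted p of 0.0140 and an adjusted p of 0.394 by edgeR.

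Col5a3 (chromosome 9, 20681346 to 20726363, minus strand, GRCm39), whose start region is printed above, had the smallest p of the family. It had 79.5, 66.4, 74.2, 74.1 and 90.002 CPM in injured-sire hearts and 69.4 CPM in replicate 16, against 68.8, 98.8 and 107 CPM in uninjured-sire hearts. The 5 injured-sire hearts were all below the uninjured-sire median, but uninjured-sire replicate 22 lay below 4 of them, so the groups overlapped. The log2 fold change was -0.29 ± 0.101 (SE; 95% interval -0.51 to -0.08), with an unadjusted p of 0.0109 and an adjusted p of 0.372 by edgeR. Without uninjured-sire replicate 22 it was -0.37 with an adjusted p of 0.0239, the only leave-one-out fit that called a collagen. That fit called 43 of 16916 genes, against 18 of 17130 in the main fit. With all genes kept, including those hardly counted, Col5a3 was also called, with an adjusted p of 0.00141. More of the whole table passed there too, with 236 of 38125 genes called and 5893 at an unadjusted p under 0.05. Over the other alternatives the adjusted p of Col5a3 ran from 0.122 to 0.594.

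Relative to its partner chains, Col5a3 was below every uninjured-sire heart in 4 of 5 injured-sire hearts. Read counts of Col5a3 per count of Col5a1 were 0.385, 0.324, 0.374, 0.387 and 0.425 in injured-sire hearts and 0.359 in replicate 16, against a lowest, median and highest of 0.423, 0.493 and 0.570 in uninjured-sire hearts. Per count of Col5a2 they were 0.621, 0.510, 0.615, 0.613 and 0.734 in injured-sire hearts, against 0.654, 0.867 and 0.961 in uninjured-sire hearts. Uninjured-sire replicate 22 was the lowest of its group in both ratios, and it was the only uninjured-sire heart within the injured-sire range of the first. These ratios were formed after the values of the 3 genes had been seen and are given without a test.

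**Figure D3:**
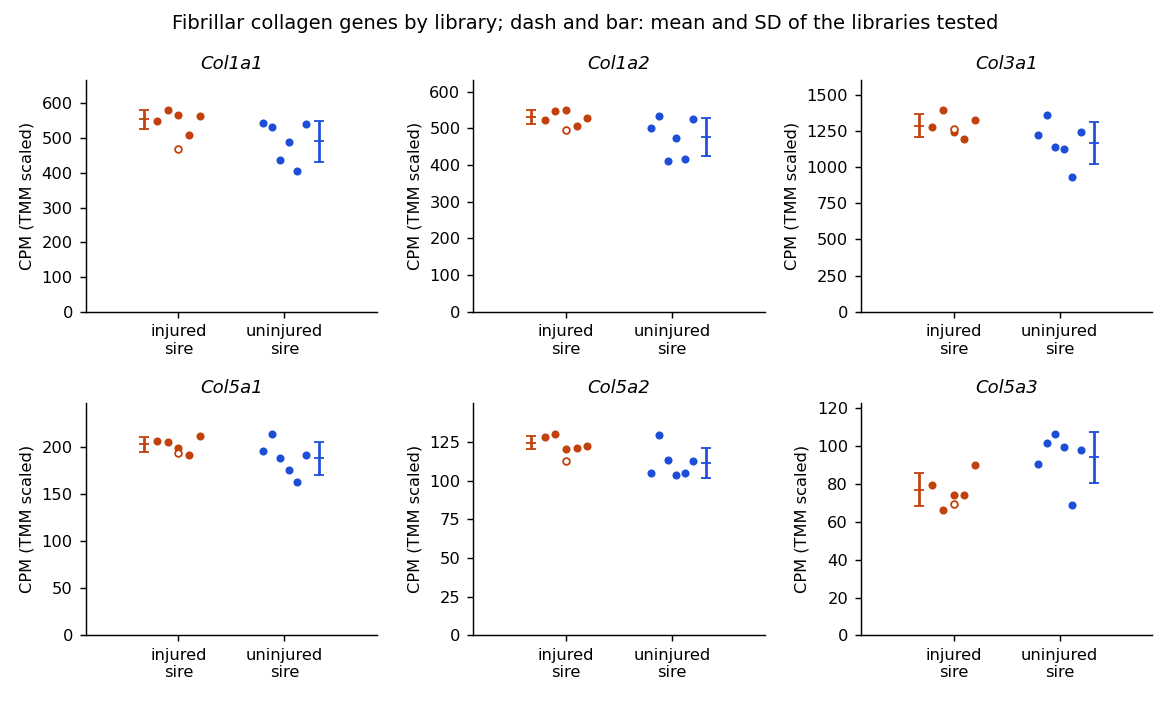
CPM of the abundant fibrillar collagens in each heart, injured-sire hearts left of uninjured-sire hearts, with the mean and SD of the hearts tested as a dash and bar and the left-out replicate 16 as an open symbol. Tested injured-sire hearts sit in the upper part of the uninjured-sire range or above it for Col1a1, Col1a2, Col3a1, Col5a1 and Col5a2. For Col5a3 they sit below the uninjured-sire median. Replicate 16 sits below every tested injured-sire heart in Col1a1, Col1a2 and Col5a2.

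Of the scarce fibrillar genes, Col27a1, a minor fibrillar collagen of developing cartilage, had a log2 fold change of 0.12 ± 0.101 (SE) at 10.1 to 12.4 CPM in injured-sire hearts and 9.69 to 11.8 CPM in uninjured-sire hearts. Col11a2, a chain of the cartilage collagen XI, had 0.11 ± 0.180 at 3.96 to 7.15 CPM and 3.65 to 7.28 CPM. Col2a1 and Col11a1, also known from cartilage, are described below with collagen IX.

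Basement membrane collagens, the sheet-forming chains of collagen IV, had estimates on both sides of 0. All 6 genes were tested, 4 with higher and 2 with lower estimates, and the median log2 fold change was 0.03. It lay between -0.023 and 0.065 over the alternatives, so it has no firm sign. Col4a1 and Col4a2 encode the chains found in every basement membrane. Col4a1 had 1199, 1127, 1167, 1102 and 1386 CPM in injured-sire hearts, against 966, 1230.4 and 1326 CPM in uninjured-sire hearts. The group means were 1196 ± 112 (SD, n = 5) and 1195 ± 130 (SD, n = 6), and the 95% interval of the log2 fold change ran from -0.15 to 0.16. Col4a2 had 996, 924, 951, 891 and 1137 CPM in injured-sire hearts, against 821, 941 and 1027 CPM in uninjured-sire hearts, with a log2 fold change of 0.06 (95% interval -0.07 to 0.20).

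Col4a5 and Col4a6 supply chains to the specialised basement membranes of kidney and smooth muscle. Col4a5 had 125, 131, 116, 113 and 121 CPM in injured-sire hearts, against 101, 113 and 120.0 CPM in uninjured-sire hearts, with a log2 fold change of 0.11 ± 0.0564 (SE; adjusted p 0.581 by edgeR). Col4a6 had 13.3, 13.7, 12.9, 9.49 and 12.0 CPM in injured-sire hearts and 9.22 CPM in replicate 16, against 6.06, 9.59 and 11.7 CPM in uninjured-sire hearts. For Col4a6, 4 of 5 injured-sire hearts were above every uninjured-sire heart. Its log2 fold change was 0.40 ± 0.156 (SE; 95% interval 0.08 to 0.73), with an unadjusted p of 0.0182 and an adjusted p of 0.411 by edgeR. Both genes are on the X chromosome and the sexes of the animals are not given. With a covariate built from Xist and Y-linked messages, Col4a6 had a log2 fold change of 0.43 and Col4a5 of 0.10. Col4a3 and Col4a4, partners of Col4a5 in kidney filtration membranes, ran at 14.1 to 15.5 and 21.2 to 30.1 CPM in injured-sire hearts and at 10.3 to 20.5 and 21.5 to 32.4 CPM in uninjured-sire hearts.

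Markers of smooth muscle and pericytes, cells that make basement membrane, had mostly but not only higher estimates in injured-sire hearts. Their 12 genes summed to 2113 to 2404 CPM in injured-sire hearts and 2109.7 CPM in replicate 16, against 1846 to 2127 CPM in uninjured-sire hearts. Of these 12, 9 had higher estimates and 0 were called, with 5 at an unadjusted p under 0.05 upward (Acta2, Myh11, Tagln, Cnn1 and Cspg4) and 2 downward (Kcnj8 and Vtn). Endothelial markers, 7 of 12 higher, summed to 1526 to 1715 CPM in injured-sire hearts and 1558 to 1652 CPM in uninjured-sire hearts. The part of either cell type in the collagen values was not tested.

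Beaded collagen VI, the microfilament that anchors cells to the surrounding fibrils, had the smallest median shift of the classes. Of 6 genes 5 were tested, 4 with higher estimates and 1 with a lower one, 0 at an unadjusted p under 0.05, and the median log2 fold change was 0.02. Col6a1 had 242, 245, 235, 236 and 257 CPM in injured-sire hearts, against 218, 242 and 264 CPM in uninjured-sire hearts. Col6a2 had 260.2, 241, 255, 235 and 260.0 CPM in injured-sire hearts, against 212, 249.5 and 275 CPM in uninjured-sire hearts. The 95% intervals of their log2 fold changes, -0.10 to 0.13 and -0.10 to 0.15, both include 0 and stay within 0.15 of it. Col6a3, the third and longest chain, had 155, 134, 151, 150.3 and 157 CPM in injured-sire hearts, against 116, 143 and 175 CPM in uninjured-sire hearts, with a log2 fold change of 0.08 ± 0.0814 (SE; adjusted p 0.849 by edgeR). Replicate 13 stood apart below the other injured-sire hearts tested in Col6a3 but not in Col6a1 or Col6a2. The left-out replicate 16 was lower still in Col6a3, at 127 CPM.

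The later-found chains that can stand in for the Col6a3 chain were scarce. Col6a6 ran at 14.9 to 20.7 CPM in injured-sire hearts and 16.6 to 22.2 CPM in uninjured-sire hearts. Col6a5 had 0 to 71 counts per heart, and its log2 fold change of 0.96 had an interval of -0.73 to 2.65. Col6a4 was too low to test.

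The other collagens comprise 21 genes, of which 19 were tested, 12 with higher and 7 with lower estimates, a median log2 fold change of 0.04, and 1, Col9a1, at an unadjusted p under 0.05. Col15a1 and Col18a1 lie in basement membrane zones of capillaries and muscle. Per kilobase of merged exons Col15a1 was the most abundant of the 21 genes, and Col18a1 (6.44) came after Col14a1 (7.75). Col15a1 had 257, 242, 283, 253 and 292 CPM in injured-sire hearts, against 230.5, 258 and 339.8 CPM in uninjured-sire hearts. Col18a1, whose end fragment is endostatin, had 42.5, 46.1, 45.2, 49.0 and 48.4 CPM in injured-sire hearts, against 34.1, 46.7 and 50.8 CPM in uninjured-sire hearts. Neither group stood above the other in either gene, with log2 fold changes of -0.03 ± 0.0975 and 0.03 ± 0.0810 (SE).

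Collagens that decorate fibril surfaces (FACIT collagens) had 8 of 9 genes tested, 7 with higher estimates. Col14a1, which coats collagen I fibrils, had 54.9, 61.4, 60.4, 50.7 and 54.6 CPM in injured-sire hearts, against 46.9, 52.1 and 58.7 CPM in uninjured-sire hearts, with a log2 fold change of 0.09 ± 0.0697 (SE; adjusted p 0.762 by edgeR). Col16a1 had 21.7, 24.4, 21.2, 21.2 and 20.2 CPM in injured-sire hearts, against 16.3, 20.1 and 22.1 CPM in uninjured-sire hearts, with a log2 fold change of 0.14 ± 0.0832 (SE; adjusted p 0.663 by edgeR). In both genes the groups overlapped. Col20a1 had 4.24, 3.30, 2.85, 3.69 and 4.59 CPM in injured-sire hearts, against 2.06, 3.29 and 3.596 CPM in uninjured-sire hearts. Col12a1, a surface collagen of tendon and healing tissue, had a log2 fold change of 0.32 ± 0.182 (SE; adjusted p 0.634 by edgeR) at 3.74 to 7.30 CPM in injured-sire hearts and 2.96 to 4.90 CPM in uninjured-sire hearts. Col22a1, known from the muscle-tendon junction, had 0 to 31 counts per heart.

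The remaining subclasses were scarce and showed no shared direction. Col8a1, a short-chain collagen of vessel walls, had 20.8, 21.4, 22.4, 24.0 and 14.8 CPM in injured-sire hearts, against 16.6, 20.1 and 22.5 CPM in uninjured-sire hearts. Its partner Col8a2 had 0.9746, 1.45, 1.33, 1.505 and 0.177 CPM in injured-sire hearts, against 0.644, 1.41 and 2.61 CPM in uninjured-sire hearts. Injured-sire replicate 17 was the lowest of all tested hearts in both. Among membrane-spanning collagens, Col23a1 had 1.87, 5.66, 3.57, 4.08 and 4.15 CPM in injured-sire hearts, against 2.81, 3.72 and 5.54 CPM in uninjured-sire hearts. Col13a1, found at nerve-muscle contacts, had 1.74, 1.21, 1.11, 3.03 and 3.38 CPM in injured-sire hearts, against 2.05, 2.21 and 3.24 CPM in uninjured-sire hearts. Their injured-sire values spread on both sides of the uninjured-sire range, and the other membrane-spanning genes, Col17a1 of skin attachment sites and Col25a1 of neurons, had at most 52 counts in any heart.

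Col7a1, the anchoring fibril collagen of skin, had 2.002, 3.33, 2.65, 3.40 and 1.71 CPM in injured-sire hearts, against 1.18, 2.82 and 4.72 CPM in uninjured-sire hearts. Col28a1, known from peripheral nerve, had 2.98, 3.18, 3.79, 3.03 and 4.85 CPM in injured-sire hearts, against 2.71, 3.92 and 4.59 CPM in uninjured-sire hearts. Col26a1 had 1.58, 1.94, 2.96, 2.23 and 3.41 CPM in injured-sire hearts, against 2.09, 2.52 and 3.50 CPM in uninjured-sire hearts. All 3 overlapped widely between the groups, and Col26a1 stood at 4.25 CPM in replicate 16, above every other heart.

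Genes whose chains join in 1 molecule or fibril, or that share a setting, were compared as ratios within each heart, which need no scaling between libraries. The log2 ratio of Col1a1 to Col1a2 counts had a within-group SD of 0.0492, against 0.142 and 0.126 for the log2 levels of the genes themselves. For Col4a1 to Col4a2 it was 0.0451, against 0.151 and 0.125. For Col6a1 to Col6a2 it was 0.0558, against 0.0855 and 0.111. These partner chains thus varied together from heart to heart, but this was not particular to chains of 1 molecule. For Col3a1 to Col1a1, of different molecules, the SD was 0.0761, against 0.150 and 0.142. For Col6a3 to Col6a1, of 1 molecule, it was 0.104, against 0.164 and 0.0855. In Col15a1 to Col18a1, which do not form 1 molecule, the SD of the ratio, 0.225, was above those of the genes, 0.187 and 0.161.

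None of 8 such ratios passed an exact two-sided permutation test over 462 splits, whose smallest possible p is 0.00433. The ratio nearest to a difference was Col4a1 to Col4a2, with mean log2 ratios of 0.29 ± 0.0148 in injured-sire hearts (SD, n = 5) and 0.35 ± 0.0590 in uninjured-sire hearts (SD, n = 6), exact permutation p 0.0649 and 0.519 after adjustment over the 8 pairs. Without uninjured-sire replicate 22, which had the lowest ratio of its group, the difference was -0.08. Every remaining uninjured-sire heart then stood above every injured-sire heart tested. The exact permutation p was therefore 0.00794 before adjustment, the smallest that 5 against 5 hearts can give. That p follows from leaving out this heart and adds no support for a difference. Counts of Col4a1 per count of Col4a2 were 1.204 to 1.237 in the 5 injured-sire hearts and 1.28 in replicate 16, against 1.18 to 1.32 in uninjured-sire hearts, so replicate 16 lay above the other injured-sire hearts and within the uninjured-sire range. Per count, Col1a1 and Col1a2 stood at 1.01 to 1.07 in injured-sire hearts and 0.972 to 1.09 in uninjured-sire hearts. Per kilobase that ratio was 1.95 on merged exons and 0.929 on the longest mRNA, so these data do not fix the proportion of collagen I chain messages.

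**Figure D4:**
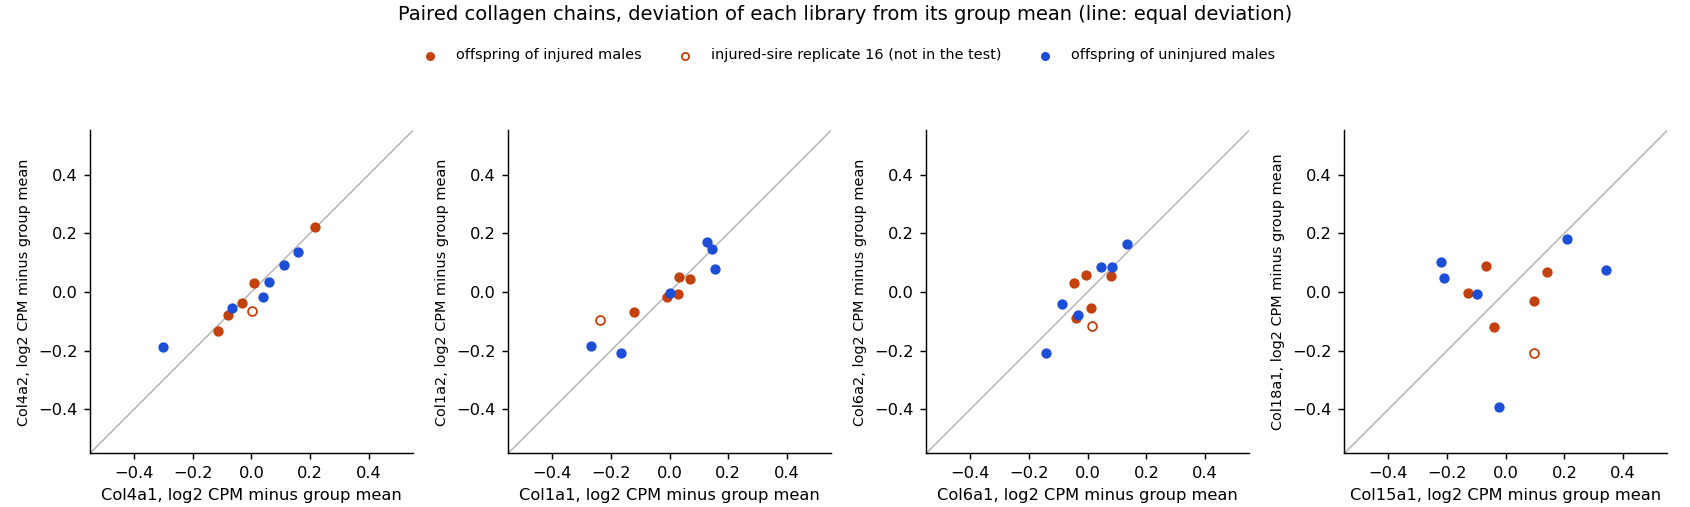
Deviation of each heart's log2 CPM from its group mean, for 1 collagen gene against its partner in 4 pairs, with injured-sire hearts in orange, uninjured-sire hearts in blue, replicate 16 open and a line of equal deviation. Collagen I, IV and VI partners lie close to the line, and Col15a1 and Col18a1 scatter.

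Col2a1 and Col9a1, known from cartilage, gave the largest estimates of the family, on few counts. Col2a1, the main fibril of cartilage, had 30, 197, 111, 86 and 3 counts in injured-sire hearts and 12 in replicate 16, against 48, 2, 25, 30, 5 and 3 counts in uninjured-sire hearts. In 3 injured-sire hearts Col2a1 stood above every uninjured-sire heart, and replicate 17 had no more than the lower uninjured-sire hearts. Its log2 fold change was 2.24 ± 0.976 (SE; 95% interval 0.06 to 4.43), with an unadjusted p of 0.0453 and an adjusted p of 0.543 by edgeR. Without injured-sire replicate 13 it was 1.58, with an unadjusted p of 0.117, and the unadjusted p was under 0.05 in 12 of 22 settings.

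Collagen IX covers collagen II fibrils. Its gene Col9a1 had 16, 55, 72, 16 and 19 counts in injured-sire hearts and 15 in replicate 16, against 20, 19, 8, 10, 7 and 15 counts in uninjured-sire hearts. Replicates 13 and 14 carried the difference, a log2 fold change of 1.42 ± 0.531 (SE; adjusted p 0.394 by edgeR), and without replicate 14 it was 1.01 with an unadjusted p of 0.0969. Col11a1, which starts collagen II fibrils, had 13, 73, 63, 69 and 34 counts in injured-sire hearts and 12 in replicate 16, against 27, 52, 31, 26, 18 and 16 counts in uninjured-sire hearts, with an adjusted p of 0.590 by edgeR. Col9a2 had 13 to 74 counts per heart and Col9a3 4 to 64, both with higher estimates and intervals that included 0.

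**Figure D5:**
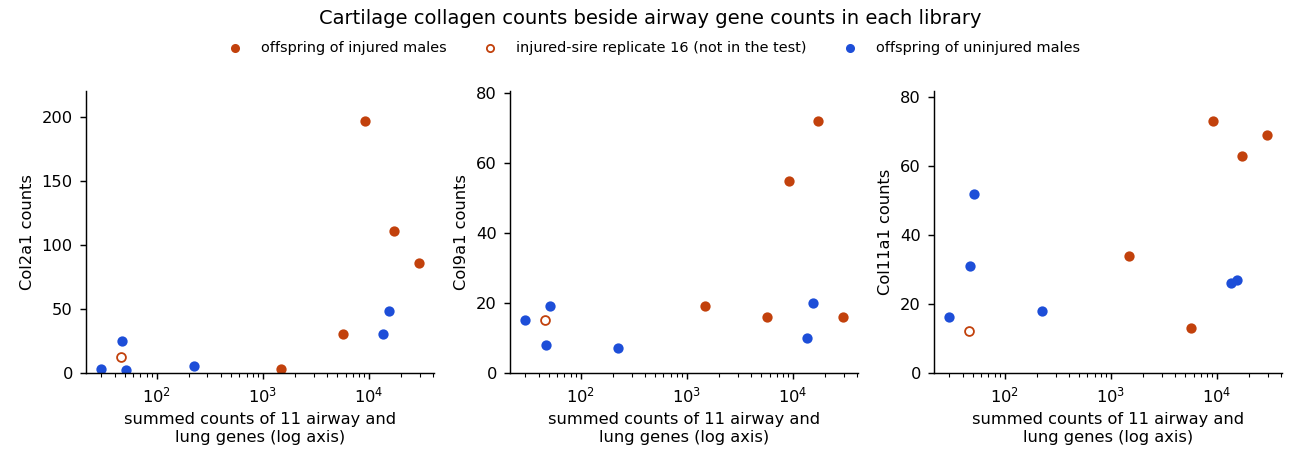
Counts of Col2a1, Col9a1 and Col11a1 in each heart (orange for injured-sire, blue for uninjured-sire, replicate 16 open) plotted against the summed counts of 11 airway and lung markers on a log axis. The injured-sire hearts with most Col2a1 (197, 111 and 86 counts) had 9113, 17259 and 29251 airway counts, and uninjured-sire hearts with 15316 and 13597 airway counts had 48 and 30 Col2a1 counts.

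Airway messages stood beside these counts. Of 11 airway and lung markers 9 were tested, all with higher estimates and 0 called. The summed counts were 5691, 9113, 17259, 29251 and 1488 in injured-sire hearts and 46 in replicate 16, against 15316, 51, 47, 13597, 222 and 30 in uninjured-sire hearts. The hearts with 86 to 197 Col2a1 counts all had at least 9113 airway counts, and uninjured-sire replicate 20 had 25 Col2a1 counts beside 47 airway counts. Of 9 markers of cartilage cells, Matn1 and Matn3 had at most 4 counts in any heart. Ucma had 0, 27, 11, 17 and 3 counts in injured-sire hearts and 12 in replicate 16, against 1, 12, 9, 4, 4 and 5 in uninjured-sire hearts. Of the 9, 5 were tested, 3 with higher estimates (Acan, Cnmd and Hapln1), 2 with lower ones (Comp and Sox9) and 0 called. The list summed to 9.62 to 14.8 CPM in injured-sire hearts and 13.5 to 16.2 CPM in uninjured-sire hearts. Its largest member was Comp, at means of 5.78 and 8.12 CPM, which is also in the activated fibroblast list. The part of tissue from outside the ventricle in the cartilage collagen counts was not tested.

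Genes that make, move, cut and sense collagen were listed apart from the family, and 0 were called in any of these lists. Of 19 genes that modify and fold the chains 12 had higher estimates, with 1 at an unadjusted p under 0.05 upward and 2 downward. Serpinh1, the collagen chaperone HSP47, averaged 357 ± 31.3 CPM in injured-sire hearts (SD, n = 5) and 403 ± 34.3 CPM in uninjured-sire hearts (SD, n = 6), with a log2 fold change of -0.17 ± 0.0658 (SE; adjusted p 0.397 by edgeR). Fkbp10, another chaperone of the helix, averaged 49.6 ± 9.52 CPM in injured-sire hearts and 41.0 ± 4.02 CPM in uninjured-sire hearts, with a log2 fold change of 0.28 ± 0.1096 (SE; adjusted p 0.445 by edgeR). The helix-folding chaperones thus had estimates of opposite sign.

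Of 20 genes of export, trimming and cross-linking, 14 had higher estimates, with 1 at an unadjusted p under 0.05 upward and 1 downward, and the smallest p was that of the export gene Mia2, with a log2 fold change of -0.21 ± 0.0587 (SE; adjusted p 0.216 by edgeR). Adamts2, which trims the amino end of fibrillar collagens, had a log2 fold change of 0.11 ± 0.0525 (SE; adjusted p 0.528 by edgeR). Of 15 genes of collagen breakdown, a list that also holds the protease inhibitors Timp1 to Timp4, 10 had higher estimates. At an unadjusted p under 0.05 stood 1 upward (the inhibitor Timp3) and 2 downward (the proteases Mmp14 and Mmp15). All of the inhibitors were among the 10, though Timp1 and Timp4 lay near 0, with log2 fold changes of 0.0044 and 0.014. The other genes had estimates of both signs. Timp3, a protease inhibitor, averaged 415 ± 29.9 CPM in injured-sire hearts (SD, n = 5) and 354 ± 42.04 CPM in uninjured-sire hearts (SD, n = 6), with a log2 fold change of 0.23 ± 0.0719 (SE; adjusted p 0.291 by edgeR). Mmp14, a membrane-bound collagenase, had -0.16 ± 0.0624 (SE; adjusted p 0.404 by edgeR).

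Of 13 collagen receptors tested, 6 had higher and 7 lower estimates, with 3 at an unadjusted p under 0.05 upward (Ddr1, Antxr1 and Cspg4) and 0 downward. Ddr1, a kinase receptor for collagen, and Cspg4, a collagen VI-binding proteoglycan, both had a log2 fold change of 0.17 (edgeR adjusted p 0.443 and 0.448). Among 20 genes of the TGF-beta pathway, the main inducer of fibrillar collagen genes, 15 had higher and 5 lower estimates. At an unadjusted p under 0.05 stood 1 upward and 1 downward. The ligand Tgfb2 had a log2 fold change of 0.32 ± 0.112 (SE; adjusted p 0.353 by edgeR).

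Genes of the activated fibroblast, the cell that lays down scar, had 7 of 12 estimates higher and 0 called, with 3 at an unadjusted p under 0.05 upward (Acta2, Postn and Fn1) and 1 downward (Comp). The 12 genes summed to 930.7 to 1063 CPM in injured-sire hearts and 699 to 936 CPM in uninjured-sire hearts, ranges that overlapped only narrowly. On average most of this sum was Acta2, which is also in the smooth muscle list, so the sum mainly follows that gene. Acta2, the contractile actin of myofibroblasts and smooth muscle, averaged 608 ± 46.4 CPM in injured-sire hearts (SD, n = 5) and 468 ± 72.2 CPM in uninjured-sire hearts (SD, n = 6), with a log2 fold change of 0.38 ± 0.0954 (SE; adjusted p 0.192 by edgeR). Comp, which binds collagen fibrils, averaged 5.78 ± 0.703 CPM in injured-sire hearts and 8.12 ± 0.955 CPM in uninjured-sire hearts, with a log2 fold change of -0.49 ± 0.130 (SE; adjusted p 0.175 by edgeR). General fibroblast markers had 5 of 14 higher and 9 lower, and summed to 2969 to 3094 CPM in injured-sire hearts and 2922 to 3306 CPM in uninjured-sire hearts. On average most of that sum was Gsn, at means of 1632 and 1692 CPM, so it mainly follows Gsn. Fibrillar collagens as a group summed to 2615 to 2951 CPM in injured-sire hearts and 2109.9 to 2889.6 CPM in uninjured-sire hearts. The groups overlapped in both sums, and the part of fibroblast number in the collagen values was not tested.

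Other cell types whose share could bear on collagen values were read from marker lists as well. Fat markers, 10 of 10 with higher estimates and 0 called, summed to 1264 to 1874 CPM in injured-sire hearts and 877 to 1741 CPM in uninjured-sire hearts. On average most of that sum was Fabp4, at means of 1056 CPM in injured-sire and 925 CPM in uninjured-sire hearts. Macrophage markers, 9 of 11 with lower estimates and 0 called, summed to 243 to 318 CPM in injured-sire hearts and 285 to 344 CPM in uninjured-sire hearts. The sums overlapped in both lists, and their part in the collagen values was not tested.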

How the data were processed

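Values are raw read counts per Ensembl gene that the authors deposited, unnormalized, made with featureCounts 2.1.1 under strand setting 2, without counting multi-mapping reads, on GRCm39 with Ensembl release 114, per the file headers. STAR 2.7.10a and Subread 2.0.3 appear in the submitters' processing notes, and that Subread version differs from the header's. Another 11 columns of the table were not used. Symbols were matched to 51487 IDs (99.3% of counts) through GENCODE M21, which is on another build and served for names and mRNA lengths. Sequences come from RefSeq on GRCm38.p6.

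In R 4.3.3, edgeR 4.0.16 compared 5 injured-sire with 6 uninjured-sire libraries (filterByExpr, minimum count 10 and total 15; TMM; robust quasi-likelihood F test, two-sided; Benjamini-Hochberg threshold 0.05), after a test on simulated data. CPM are TMM-scaled. SEs come from the F statistic. The median half-width of a 95% interval was 0.262 (log2) over all genes. Ratios used exact permutation (SciPy 1.17.1). Alternatives included DESeq2 1.42.0, limma 3.58.1, other scaling and filters, a sex-linked covariate and leaving out each library.

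Values in every library are given for the highest 3 collagens per class by level (2 in small subclasses) and those at an unadjusted p under 0.05; the lists of collagen-handling, TGF-beta and activated fibroblast genes name the 2 members with the smallest p, except that 1 gene is not reported here. Marker lists are given by counts and sums. Genes named as making up a sum, a count by direction or a count at an unadjusted p under 0.05 were chosen after their values were seen. The members and lists were chosen with earlier results of these data known.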

Additional observations from a re-analysis of the deposited data

Results flagged for a closer look

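In 80 checks of collagen CPM within a group, 4 values stood far from the others of their group; chance gives such a value in about 1 group in 20. In Col6a3, injured-sire replicate 13 was lowest of the injured-sire hearts tested at 134 CPM, with the others tested at 150.3 to 157 CPM. The left-out replicate 16 was lower still, at 127 CPM. In Col5a2, uninjured-sire replicate 19 was highest at 129 CPM, with the others at 104 to 113 CPM. The same heart was highest in Col11a1 at 1.56 CPM, with the others at 0.494 to 0.775 CPM. In Col18a1, uninjured-sire replicate 20 was lowest at 34.1 CPM, with the others at 44.6 to 50.8 CPM.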

How the results depend on the processing

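Genes called over all genes numbered 18, and 130 by DESeq2's Wald test (which gave 3986 genes no adjusted p), 236 without a filter, 28 with at least 1 CPM in 5 libraries, 49 at a threshold of 0.1, and 8 to 43 when single libraries were left out (43 without uninjured-sire replicate 22, 28 without injured-sire replicate 12, 9 without injured-sire replicate 14 or uninjured-sire replicate 23, 8 without injured-sire replicate 13). Collagens called numbered 0, and 1 without a filter; leaving out single libraries gave 0 to 1. The call was Col5a3 each time (log2 fold change -0.31 without a filter). Col4a6, Col5a2 and Col5a3 kept their direction and an unadjusted p under 0.05 in all 23 settings.

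Genes near 0 changed sign, and the cause was not tested. Col26a1 was 0.029 with all 12 libraries. Col4a1 was -0.0080 with upper-quartile factors, -0.017 without a filter, -0.017 with the sex-linked covariate, -0.0018 without mitochondrial genes and -0.00061 by limma voom, and Col6a1 was -0.0055 without a filter. Leaving out single libraries gave -0.074 to 0.044 for Col15a1, -0.035 to 0.070 for Col18a1, -0.14 to 0.21 for Col23a1, -0.058 to 0.033 for Col4a1, -0.014 to 0.041 for Col6a1, -0.017 to 0.057 for Col6a2 and -0.22 to 0.16 for Col7a1.

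For log2 ratios, injured minus uninjured sire, all 12 libraries gave -0.0030 for Col1a1/Col1a2 and 0.010 for Col6a1/Col6a2. Leaving out single libraries gave -0.028 to 0.0076 for Col6a1/Col6a2, -0.13 to 0.012 for Col15a1/Col18a1, -0.033 to 0.23 for Col8a1/Col4a1 and -0.080 to -0.047 for Col4a1/Col4a2. No paired analysis was possible because the groups share no replicate numbers. Levels per kilobase moved with the length used, as described.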
